A study of Homo sapiens with 4 samples.

Results

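Interferon-stimulated genes, the genes that cells switch on when interferon or viral nucleic acid is sensed, were followed as a group of 39 chosen by symbol from a list of sensors, STAT and IRF factors and antiviral effectors. All 39 were found among the 57820 gene rows of the count table, each in 1 row, and 38 had enough reads to be tested. The libraries came from U87, an established human glioma cell line, in which cells carried either a short hairpin RNA aimed at GLUD1 (labelled shGlud1, 2 libraries) or a control hairpin (labelled shNT, 2 libraries). GLUD1 encodes mitochondrial glutamate dehydrogenase. Every culture of both groups was kept in low glucose for 6 h in medium with bovine calf serum, so no library shows the genes in full glucose. Each group carries a single hairpin label. Nothing in the labels states that replicate libraries were grown as independent cultures, so the p-values rest on a spread that may be purely technical.

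Cytosolic sensors of viral RNA and DNA signal through adaptor proteins to IRF3 and IRF7, which switch on interferon genes and some interferon-stimulated genes directly. Secreted interferon binds its receptors, JAK kinases phosphorylate STAT proteins, and STAT2 with IRF9 forms part of the complex ISGF3. That complex binds a DNA motif called the interferon-stimulated response element in the promoters of most of these genes. Their products block viral entry, translation, replication or release, and several of them also restrain or amplify the pathway itself.

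Library totals ran from 17407149 to 18537314 expected counts in shGlud1 and from 16546849 to 18118503 in shNT. Levels are given as CPM, a gene's share of its library's counts on a common scale, with library sizes adjusted by edgeR's TMM factors. Differences are log2 fold changes, positive where shGlud1 was higher, each with a standard error (SE). GLUD1 was at 34.0 and 44.5 CPM in the shGlud1 libraries, against 78.1 and 76.5 CPM in the shNT libraries (log2 fold change -0.98, SE 0.13). Of the markers of glioma and glial cells VIM, CD44, TNC and SPARC were above 300 CPM in all 4 libraries, whereas GFAP and S100B were under 1 CPM and SOX2 was at 0. Of 9 leukocyte markers 6 were under 1 CPM in every library, PTPRC and CD3E among them. The others were CD68, which is also expressed outside leukocytes, at 290 and 275 CPM in shGlud1 and at 398 and 357 CPM in shNT, CSF1R at 6.15 and 7.20 CPM in shGlud1 and at 8.42 and 7.45 CPM in shNT, and CD14 at 0.050 and 0.52 CPM in shGlud1 and at 2.86 and 2.74 CPM in shNT. CD14 fell under all 3 scalings used here. Of 5 markers of plasmacytoid dendritic cells LILRA4, CLEC4C, IL3RA and GZMB were at 0, and TCF4 was at 6.50 and 8.81 CPM in shGlud1 and at 3.52 and 4.57 CPM in shNT. Of 5 epithelial markers 4 were under 1 CPM, and KRT14 was at 14.0 and 12.7 CPM in shGlud1 and at 52.7 and 56.9 CPM in shNT. The 11 glioma and glial markers summed to 7437 and 8167 CPM in shGlud1 and to 4224 and 3890 CPM in shNT. In these sums VIM was at 4436 and 4915 CPM in shGlud1 and at 2425 and 2279 CPM in shNT. EGFR was at 1189 and 1375 CPM in shGlud1 and at 165 and 140 CPM in shNT. The markers did not all differ in this way, and FABP7 fell (-0.88). Of the 8 tested, 4 rose, 1 fell and 3 were not called with TMM factors, CD44 and TNC among the last, beside 31.9% and 29.1% of all genes that rose and fell. The part of such differences in the results below was not tested.

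The interferon-stimulated genes did not move as a block. The 4 sensors, HERC5 and PARP9 had higher transcript levels in shGlud1, and ISG15, IFI6, BST2 and IRF7 had lower ones. Of the 38 tested, 15 rose and 12 fell at an adjusted p under 0.05 in edgeR's quasi-likelihood test, and 11 were not called. Thus 39.5% of the tested interferon-stimulated genes rose and 31.6% fell, beside 31.9% and 29.1% of all 14616 genes tested, of which 61.0% were called in either direction. The counts were near the background in both directions. A pair of other scalings is also used: library totals in place of TMM factors (total counts), with 21 rises and 7 falls, and a fit with each library's dependence on transcript length taken out (length trend removed), with 13 rises and 11 falls. With TMM factors the median log2 fold change of the 38 was -0.06, beside 0.06 for all genes tested. The range ran from 2.22 for HERC5 to -2.03 for BST2. The 39 genes together took 0.393% and 0.379% of all counts in the shGlud1 libraries, against 0.441% and 0.442% in the shNT libraries, and ISG15 and OASL alone made up 59.6% and 52.5% of their summed CPM in shGlud1 and 72.1% and 72.2% in shNT. Without ISG15 and OASL the other 37 genes took 0.159% and 0.180% of all counts in shGlud1 and 0.123% and 0.123% in shNT, but on the TMM scale they summed to 1383 and 1448 CPM in shGlud1 and to 1494 and 1456 CPM in shNT, so the direction of this sum depends on the scaling. In bulk libraries fewer cells expressing a gene and less RNA per cell cannot be told apart.

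**Figure D1:**
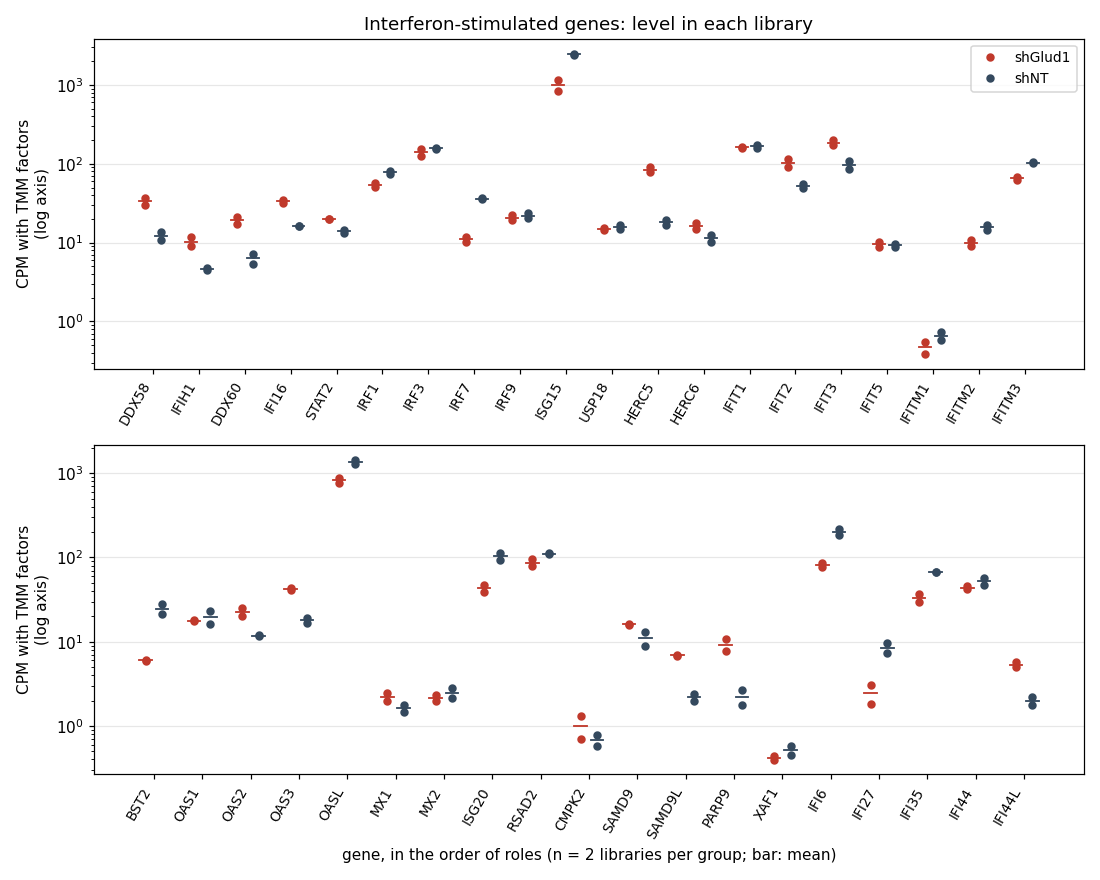
Level of each of the 39 interferon-stimulated genes in every library, in CPM with TMM factors on a log axis, for shGlud1 (left of each pair) and shNT (right), with bars at the mean of the 2 libraries. HERC5, DDX58 and PARP9 lie higher in both shGlud1 libraries, and ISG15, BST2 and IRF7 lie lower in both.

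Promoter sequence is shown here because the core letters of one element occurred both in genes that rose and in genes that fell, though not in all of either. RefSeq promoter windows (GRCh38.p14) of 300 bases, 250 before and 50 after each annotated start, were given for 31 of the 39 genes, with DDX58 matched under its newer symbol. The core letters of the interferon-stimulated response element, TTTC and again TTTC with any 2 bases between them, were searched on both strands, with overlapping matches counted. They occurred in at least 1 window of 20 of these 31 genes (64.5%), beside 4.38% of all genes with a window. By direction they occurred in 8 of the 13 genes that rose, 7 of the 9 that fell and 5 of the 8 that were not called. The letters TTCNNNGAA, the core of the gamma-activated site, occurred in 9 of the 31 (29.03%), beside 9.38% of all genes with a window, namely in 1 of the 13 that rose, 4 of the 9 that fell and 4 of the 8 that were not called. A match is a description of the letters and not evidence of binding. The stretches below hold every match before the start in 1 window each, for the 4 largest rises and then the 4 largest falls among genes with such a match, written 5′ to 3′ along the gene with matches in capitals.
HERC5 (rose, chr4:88456982-88457066, plus strand): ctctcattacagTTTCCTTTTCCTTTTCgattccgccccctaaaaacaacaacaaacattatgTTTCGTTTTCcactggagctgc
PARP9 (rose, chr3:122564320-122564353, minus strand): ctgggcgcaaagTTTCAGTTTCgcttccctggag
DDX60 (rose, chr4:168318784-168318852, minus strand): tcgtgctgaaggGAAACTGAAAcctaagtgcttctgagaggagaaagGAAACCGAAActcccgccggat
IFI44L (rose, chr1:78620272-78620396, plus strand): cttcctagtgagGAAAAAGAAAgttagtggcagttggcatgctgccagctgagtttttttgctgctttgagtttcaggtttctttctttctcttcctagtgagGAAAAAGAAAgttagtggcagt
BST2 (fell, chr19:17405733-17405772, minus strand): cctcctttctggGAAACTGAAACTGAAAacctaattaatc
IFI27 (fell, chr14:94110616-94110662, plus strand): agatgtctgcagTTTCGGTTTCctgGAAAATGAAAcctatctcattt
ISG15 (fell, chr1:1013372-1013411, plus strand): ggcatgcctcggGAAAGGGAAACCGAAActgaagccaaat
IFI6 (fell, chr1:27672264-27672360, minus strand): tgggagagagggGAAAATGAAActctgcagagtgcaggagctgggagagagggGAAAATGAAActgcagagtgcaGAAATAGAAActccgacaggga
HERC5 had 3 matches and BST2 had 2, so the strongest rise and the strongest fall of the group both lay downstream of repeated copies of this core.

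All 4 sensor genes were higher in shGlud1, beside 31.9% of all genes tested that rose. Their longest transcripts were 3595 nt or longer, and 45.4% of all genes of at least 3000 nt rose. DHX58, a RIG-I-like helicase gene listed with the adaptors below, fell (-1.06). DDX58, which encodes the RNA sensor RIG-I (GRCh38 chromosome 9, 32455705 to 32526324), was at 30.0 and 37.1 CPM in shGlud1, against 10.9 and 13.7 CPM in shNT (log2 fold change 1.45, SE 0.16, adjusted p = 2.23e-18). IFIH1, which encodes MDA5, the sensor of long double-stranded RNA, was at 8.995 and 11.7 CPM in shGlud1 and at 4.54 and 4.71 CPM in shNT (1.16, SE 0.23, adjusted p = 1.32e-06). With the length trend removed DDX58 was at 1.18 and IFIH1 at 1.005. DDX60, a helicase gene, reached 17.2 and 21.1 CPM in shGlud1, against 7.18 and 5.42 CPM in shNT (1.61, SE 0.20, adjusted p = 2.28e-15). IFI16, which encodes a sensor of DNA, averaged 33.6 ± 2.34 CPM in shGlud1 and 16.2 ± 0.04 CPM in shNT (SD, n = 2 each, log2 fold change 1.05, SE 0.15, adjusted p = 5.4e-11). All 4 rises were called in each of the 14 alternative fits.

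The transcription factors split. STAT2 was at 19.8 and 20.2 CPM in shGlud1, against 14.7 and 13.2 CPM in shNT, a rise of 0.52 (SE 0.17, adjusted p = 0.00468). Leaving out shNT replicate 2 ended that call (0.45, adjusted p = 0.107). IRF9, its partner in ISGF3, was at 22.2 and 19.3 CPM in shGlud1 and at 23.5 and 20.3 CPM in shNT, so the groups overlapped (-0.08, SE 0.16, adjusted p = 0.688). Under total counts IRF9 was called as higher (0.44, adjusted p = 0.0231). IRF7, which amplifies interferon production and is itself induced by interferon, had the strongest fall of the factors. It was at 11.7 and 10.2 CPM in shGlud1, against 36.4 and 35.6 CPM in shNT (-1.72, SE 0.16, adjusted p = 1.43e-25). IRF1, a factor induced by interferon gamma and NF-kB, was at 56.7 and 51.3 CPM in shGlud1 and at 82.3 and 74.8 CPM in shNT (-0.54, SE 0.13, adjusted p = 9.57e-05). Scaled by total counts alone IRF1 was not called (-0.02). IRF3, which is present before any stimulus, was at 154 and 126 CPM in shGlud1 and at 155 and 158 CPM in shNT (-0.16, SE 0.13, adjusted p = 0.283), and its exons overlap those of BCL2L12 on the opposite strand. Leaving out shGlud1 replicate 1 made IRF3 a called fall (-0.33, adjusted p = 0.0131), whereas it was at -0.018 without shGlud1 replicate 2 and was called as higher under total counts (0.35, adjusted p = 0.00412).

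The ISG15 system had its ubiquitin-like modifier lower and its main human ligase higher. ISG15 encodes a small protein that is attached to other proteins or secreted, and its transcript was the most abundant of the group in every library. It was at 1150 and 838 CPM in shGlud1, against 2409 and 2485 CPM in shNT (-1.30, SE 0.17, adjusted p = 3.95e-14). The fall of ISG15 was -0.60 with the length trend removed and -0.79 under total counts, and both were called. HERC5, which encodes the ligase that attaches ISG15 (GRCh38 chromosome 4, 88457117 to 88506163), was at 78.0 and 91.0 CPM in shGlud1, against 16.6 and 19.5 CPM in shNT. This 4.67-fold difference was the largest rise of the group (2.22, SE 0.14, adjusted p = 9.95e-53). HERC6, the neighbouring relative that serves as the ISG15 ligase in mouse, rose by 0.51 (SE 0.18, adjusted p = 0.0096), a call lost with the length trend removed (0.32, adjusted p = 0.0895), with DESeq2, and without either shGlud1 replicate 2 or shNT replicate 1. USP18, which removes ISG15 from proteins and restrains the interferon receptor, was at 14.6 and 15.4 CPM in shGlud1 and at 16.8 and 14.8 CPM in shNT, with overlapping groups (-0.08, SE 0.17, adjusted p = 0.721), and was called as higher under total counts (0.45, adjusted p = 0.0404).

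Within the IFIT cluster on chromosome 10, whose proteins bind foreign RNA, only some members were called. IFIT2 was at 90.9 and 115 CPM in shGlud1 and at 48.9 and 55.5 CPM in shNT (0.98, SE 0.13, adjusted p = 8.43e-13). IFIT3, which stabilises IFIT1, was at 171 and 198 CPM in shGlud1 and at 86.9 and 108 CPM in shNT (0.92, SE 0.13, adjusted p = 2.59e-11). Both rises were also called with the length trend removed (0.80 and 1.07) and under total counts (1.503 and 1.45). IFIT1, the most abundant of the cluster in shNT, was at 161 and 163 CPM in shGlud1 and at 175 and 158 CPM in shNT (-0.04, SE 0.13, adjusted p = 0.823), and IFIT5 was at 8.85 and 10.2 CPM in shGlud1 and at 8.86 and 9.67 CPM in shNT (0.04, SE 0.21). Both overlapped between groups, and under total counts both were called as higher (0.48 and 0.56), whereas with the length trend removed IFIT1 was called as lower (-0.34).

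Of the 4 membrane effectors, 3 fell with TMM factors, beside 29.1% of all genes tested. All 4 have longest transcripts under 1500 nt, a length at which 55.1% of all genes fell. BST2 alone was called under total counts or with the length trend removed. BST2 encodes tetherin, which holds budding virions on the cell surface, and it had the largest fall of the group. It was at 6.15 and 5.86 CPM in shGlud1, against 28.2 and 21.0 CPM in shNT, 4.09-fold lower (-2.03, SE 0.19, adjusted p = 3.41e-26). IFITM3, which blocks viral fusion in endosomes, was at 68.3 and 62.4 CPM in shGlud1, against 102 and 106 CPM in shNT (-0.67, SE 0.13, adjusted p = 9.96e-07), while IFITM2 averaged 9.91 ± 1.18 CPM in shGlud1 and 15.6 ± 1.63 CPM in shNT (SD, n = 2 each, -0.66, SE 0.19, adjusted p = 0.00105). Without shNT replicate 2 IFITM2 was not called (-0.55, adjusted p = 0.0636). The falls of IFITM2 and IFITM3 were not called under total counts (-0.14 and -0.15), and with the length trend removed they were at 0.01 and 0.03. That fit uses the longest transcript of each gene. In a fit on the median transcript length instead, both falls were called. IFITM1 stayed under 1 CPM in all 4 libraries. IFITM1, IFITM2 and IFITM3 are near-identical and had counts that were not whole, so how reads were divided among them is uncertain.

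Of the oligoadenylate synthetase genes, OAS2 and OAS3 rose, OAS1 beside them on chromosome 12 was not called, and OASL, which lies apart on the same chromosome, fell. The synthetases make the second messenger that activates RNase L. OAS3 was at 41.0 and 44.0 CPM in shGlud1 and at 19.0 and 16.7 CPM in shNT (1.25, SE 0.15, adjusted p = 3.83e-16), and OAS2 was at 20.04 and 25.4 CPM in shGlud1 and at 11.8 and 11.9 CPM in shNT (0.94, SE 0.17, adjusted p = 1.81e-07). OAS1 was at 18.2 and 17.4 CPM in shGlud1 and at 22.9 and 16.4 CPM in shNT, with the shGlud1 values inside the shNT range (-0.14, SE 0.16, adjusted p = 0.481). OASL, which lacks the synthetase activity and enhances RIG-I signalling, was at 887 and 764 CPM in shGlud1, against 1445 and 1295 CPM in shNT (-0.73, SE 0.16, adjusted p = 1.14e-05), and under total counts its fall was not called (-0.21). The MX1 and MX2 genes for antiviral GTPases were between 1.47 and 2.81 CPM in all 4 libraries and neither was called (0.45, SE 0.39, for MX1 and -0.19, SE 0.35, for MX2). Under total counts MX1 was called as higher (0.97, adjusted p = 0.0249).

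Enzymes that act on nucleotides or RNA were lower or not called. ISG20, an exonuclease gene, was at 47.1 and 38.7 CPM in shGlud1, against 112 and 94.1 CPM in shNT (-1.26, SE 0.13, adjusted p = 2.27e-20). RSAD2, which encodes viperin, an enzyme that makes a chain-terminating nucleotide, was at 78.1 and 94.9 CPM in shGlud1, against 110 and 112 CPM in shNT (-0.36, SE 0.13, adjusted p = 0.0106). Its call was lost in 3 of the 4 fits that left out a library (adjusted p = 0.0832 without shGlud1 replicate 1, 0.0921 without shNT replicate 1 and 0.127 without shNT replicate 2), and under total counts it was at 0.17. CMPK2, a neighbouring nucleotide kinase gene with exons overlapping those of RSAD2, was at 1.30 and 0.69 CPM in shGlud1 and at 0.59 and 0.78 CPM in shNT and was not called (0.52, SE 0.56).

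Genes for the large proteins SAMD9, SAMD9L and PARP9 were higher. PARP9, which acts with the ubiquitin ligase DTX3L, was at 7.70 and 10.8 CPM in shGlud1, against 1.76 and 2.68 CPM in shNT (2.05, SE 0.26, adjusted p = 7.92e-14). SAMD9L, an antiviral factor that restrains translation, was at 6.90 and 6.86 CPM in shGlud1, against 1.98 and 2.42 CPM in shNT (1.64, SE 0.28, adjusted p = 1.8e-08). PARP9 stood 4.13-fold and SAMD9L 3.11-fold higher in shGlud1, and with the length trend removed their log2 values were 1.48 and 1.06. SAMD9, the neighbour of SAMD9L, was at 16.0 and 16.3 CPM in shGlud1 and at 13.0 and 8.95 CPM in shNT (0.56, SE 0.18, adjusted p = 0.00461), a call lost without shNT replicate 2 (0.31, adjusted p = 0.296), with DESeq2 and with the length trend removed, where the value was at 0. XAF1, a pro-apoptotic gene, had 8 and 10 expected counts in shGlud1 and 8 and 7 in shNT and was too low to be tested.

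Of the 5 remaining genes named for their induction by interferon, 3 fell and 1 rose, beside 29.1% and 31.9% of all genes tested. IFI6, whose product protects cells from apoptosis and blocks flavivirus replication, was at 77.7 and 85.8 CPM in shGlud1, against 215 and 187 CPM in shNT (-1.30, SE 0.13, adjusted p = 5.99e-21). IFI27 was at 3.05 and 1.82 CPM in shGlud1, against 7.25 and 9.61 CPM in shNT (-1.80, SE 0.26, adjusted p = 2.62e-11), and IFI35 was at 36.4 and 29.7 CPM in shGlud1, against 68.1 and 66.5 CPM in shNT (-1.03, SE 0.13, adjusted p = 1.47e-13). With the length trend removed IFI6 was at -0.60, IFI27 at -1.64 and IFI35 at -0.47, and under total counts they were at -0.77, -1.29 and -0.51. All of these were called as lower. IFI44L was at 4.997 and 5.68 CPM in shGlud1 and at 1.76 and 2.22 CPM in shNT (1.42, SE 0.30, adjusted p = 6.43e-06), while its neighbour IFI44, at 41.9 and 45.9 CPM in shGlud1 and at 47.2 and 56.5 CPM in shNT, was not called (-0.24, SE 0.13, adjusted p = 0.104), except with RLE factors (-0.30, adjusted p = 0.0484).

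**Figure D2:**
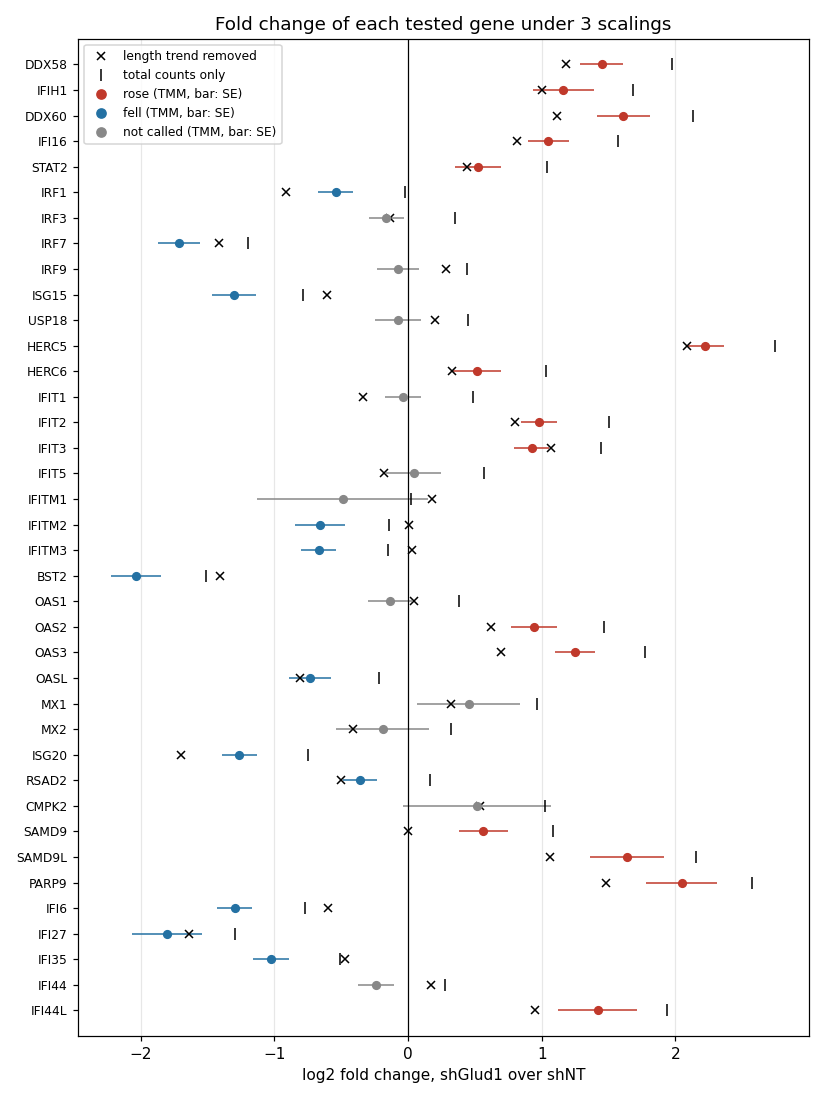
Log2 fold change of shGlud1 over shNT for the 38 genes tested, from the fit with TMM factors (points, bars are the SE, red for rose, blue for fell, grey for not called), with the length trend removed (crosses) and with total counts only (ticks). The sensors lie above 0 under all 3 scalings, and ISG15, IRF7, BST2, ISG20, IFI6, IFI27 and IFI35 lie below 0 under all 3.

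Compared per kilobase of the longest annotated transcript, the levels spanned several orders of magnitude and the top 4 genes were the same in both groups. ISG15 led with 1263 CPM per kb in shGlud1 and 3109 in shNT, followed by OASL with 253 in shGlud1 and 419 in shNT and by IFI6 with 97.2 in shGlud1 and 239 in shNT. Next came IFITM3 with 80.9 in shGlud1 and 129 in shNT. HERC5 stood at 24.0 CPM per kb in shGlud1 and at 5.14 in shNT. At the low end XAF1 was at 0.12 CPM per kb in shGlud1 and 0.14 in shNT and CMPK2 at 0.35 in shGlud1 and 0.24 in shNT. So ISG15 and OASL transcript was abundant in the shNT cells as well.

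Fold changes moved with transcript length, in these genes and in the libraries as a whole. The longest transcript had a median of 4353 nt for the interferon-stimulated genes that rose and 1646 nt for those that fell, against 4686 nt for all genes that rose and 2266 nt for all that fell. Of the 7 tested interferon-stimulated genes under 1500 nt 0 rose and 6 fell, and of the 22 of at least 3000 nt 14 rose and 4 fell. Among all genes with a length 6.37% of those under 1500 nt rose and 55.1% fell, and 45.4% of those of at least 3000 nt rose and 16.8% fell. As a description across genes, which share the same 4 libraries, the Spearman correlation of fold change with length was 0.68 over the 38 interferon-stimulated genes and 0.45 over 14266 genes. With each library's trend on length removed it was 0.40 over the 38 and 0.01 over all. In that fit 13 of the 38 rose and 11 fell, beside 26.9% and 28.7% of all genes tested and 55.6% called in either direction. Scaled by total counts alone, 21 rose and 7 fell, beside 51.9% and 13.7% of all genes and 65.6% called in either direction, and the median of all genes was then 0.57.

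Of the 15 rises, 13 were also called as rises with the length trend removed and under total counts, the exceptions being HERC6 and SAMD9. Of the 12 falls, 7 were also called as falls in both, namely ISG15, ISG20, IFI6, IFI27, IFI35, IRF7 and BST2. The other falls, those of IFITM2, IFITM3, OASL, IRF1 and RSAD2, were not called under at least 1 of these scalings. In the fit on the median transcript length the rise of HERC6 was called, and SAMD9 was at -0.13 and not called. ISG20 and IRF1, which fell, have longest annotated transcripts of 5634 and 5153 nt, and IFIT3, which rose, has one of 2496 nt. Which transcripts of these genes were expressed was not tested.

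**Figure D3:**
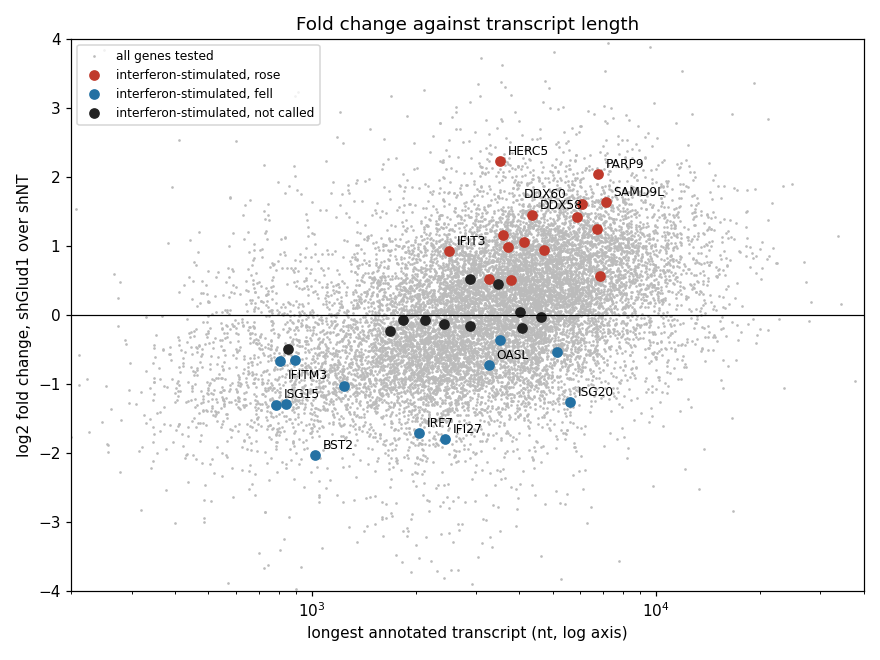
Log2 fold change of shGlud1 over shNT against the length of the longest annotated transcript (log axis) for all genes tested (grey) and for the interferon-stimulated genes that rose (red), fell (blue) or were not called (black). Among the interferon-stimulated genes all rises lie at 2496 nt or longer, and BST2, ISG15 and IFITM3 lie among the short transcripts; 76 other genes fall outside the axes.

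Of 21 interferon genes in the table, 18 had 0 counts in every library, among them all 13 interferon alpha genes, IFNB1 and IFNG. A count of 0 limits reads at this depth and does not show that a gene was silent. IFNL1, which encodes a type III interferon (GRCh38 chromosome 19, 39296325 to 39298673), was the exception among ligands. It was at 7.60 and 6.08 CPM in shGlud1, against 54.9 and 49.2 CPM in shNT, 7.63-fold lower (-2.93, SE 0.16, adjusted p = 1.98e-71). The fall was -2.26 with the length trend removed and -2.41 under total counts, and both were called. IFNL2 and IFNL3, near-identical to each other, had at most 12 expected counts in any library. The specific chain of the type III receptor, IFNLR1, had 11 and 8 expected counts in shGlud1 and 1 and 1 in shNT and was too low to be tested; it was singled out after its values were seen.

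Of 8 receptor and JAK kinase genes tested 6 rose and 1 fell, with a median of 0.83, beside 31.9% and 29.1% of all genes tested. Total counts gave 7 rises and 0 falls, beside 51.9% and 13.7% of all genes. IFNAR1, a chain of the type I receptor, was at 17.6 and 24.7 CPM in shGlud1 and at 6.45 and 6.54 CPM in shNT (1.71, SE 0.19, adjusted p = 6.95e-18), JAK1 rose by 1.24 (SE 0.14) and IFNAR2 by 0.98 (SE 0.17). All of these rises were also called with the length trend removed (1.202, 0.88 and 0.73). IFNGR1, a chain of the interferon gamma receptor, was lower (-0.59, SE 0.20, adjusted p = 0.00653), but not called without shGlud1 replicate 1 or shNT replicate 1 or under total counts (-0.06).

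Of 13 genes for sensing adaptors and kinases tested, 2 rose and 3 fell, beside 31.9% and 29.1% of all genes. Total counts gave 9 rises and 2 falls (all genes 51.9% and 13.7%), and removal of the length trend gave 1 rise and 5 falls (all genes 26.9% and 28.7%). TRIM25, a ubiquitin ligase that activates RIG-I, was at 29.9 and 28.9 CPM in shGlud1, against 51.9 and 53.3 CPM in shNT (-0.84, SE 0.14, adjusted p = 5.27e-09), and DHX58, which encodes LGP2, the RIG-I-like helicase without signalling domains, fell by 1.06 on the log2 scale (SE 0.19, adjusted p = 9.89e-08). Both stood lower than in either shNT library while DDX58 and IFIH1 stood higher. IRF5 was lower (-0.87), but at -0.35 and not called under total counts, and TRAF6 was higher (1.21). MAVS, the mitochondrial adaptor of the RNA sensors, was higher at 0.47 (adjusted p = 0.00731) with TMM factors. With the length trend removed MAVS was at -0.21 and not called. Leaving out a library ended the calls of IRF5 (without shGlud1 replicate 2 or shNT replicate 1), TRAF6 (without shGlud1 replicate 2) and MAVS (without shGlud1 replicate 1 or shNT replicate 2), and DESeq2 did not call IRF5 or MAVS.

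Of 8 negative regulators tested, 4 rose and 1 fell, beside 31.9% and 29.1% of all genes, and under total counts 5 rose and 0 fell, beside 51.9% and 13.7%. PIAS1, an inhibitor of STAT activity, was at 6.15 and 5.38 CPM in shGlud1, against 1.47 and 0.915 CPM in shNT (2.28, SE 0.32, adjusted p = 1.56e-11), the phosphatase gene PTPN11 rose by 1.64 (SE 0.15) and IRF2, a repressor of interferon-stimulated genes, by 1.32 (SE 0.23). SOCS1, an inhibitor of JAK kinases, was at 2.25 and 2.78 CPM in shGlud1 and at 3.44 and 4.71 CPM in shNT (-0.70, SE 0.30, adjusted p = 0.0359), a call lost without shGlud1 replicate 1 or shNT replicate 2, with no filter on low counts, with DESeq2, with the length trend removed and under total counts.

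A further 53 interferon-stimulated genes outside the 39 were tested, and 27 rose and 13 fell, with a median of 0.49, beside 31.9% and 29.1% of all genes and their median of 0.06. Total counts gave 36 rises and 4 falls, beside 51.9% and 13.7% of all genes. The chemokine gene CCL5 was at 136 and 119 CPM in shGlud1, against 423 and 371 CPM in shNT (-1.64, SE 0.14, adjusted p = 3.71e-29), and the chemokine gene CXCL11 fell by 1.87 on the log2 scale (SE 0.19) and LY6E by 0.91 (SE 0.14). ADAR, which encodes an editing enzyme of double-stranded RNA, was at 75.8 and 76.6 CPM in shGlud1, against 33.6 and 33.8 CPM in shNT (1.18, SE 0.13, adjusted p = 3.22e-17), and SAMHD1, which encodes a nucleotide hydrolase, rose by 1.48 (SE 0.17). ADAR and SAMHD1 were also called as higher, and CCL5, CXCL11 and LY6E as lower, with the length trend removed and under total counts. No length was matched for CCL5, so in the length fit it was adjusted by the median of each library's trend and not by its own length.

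**Figure D4:**
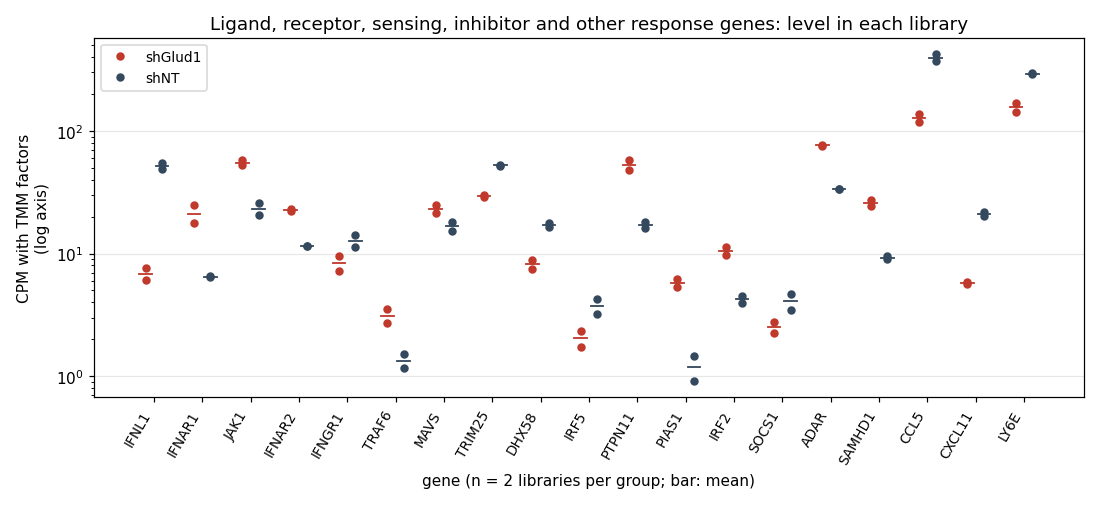
Level in every library, in CPM with TMM factors on a log axis, of the ligand, receptor, sensing, inhibitor and other interferon-stimulated genes named in the text, for shGlud1 (left of each pair) and shNT (right), with bars at the mean of the 2 libraries. IFNL1, CXCL11 and CCL5 lie lower in both shGlud1 libraries, and IFNAR1, PTPN11 and PIAS1 lie higher.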

How the data were processed

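The authors deposited expected counts, estimated reads per gene that need not be whole (20.1% of values above 0 were not), for 57820 rows named by human Ensembl ID and symbol. Per the labels' protocols, poly-A RNA was made into TruSeq V2 libraries, which do not mark strand, and sequenced in pairs. Bowtie 0.12.2 and mm8, a mouse build, are listed per the submitters' processing notes, and this build does not match the human IDs. Which program and annotation gave the counts is not stated in those sources. Counts were rounded. edgeR 4.0.16 (R 4.3.3) kept 14616 genes with filterByExpr (minimum count 10), scaled them with TMM factors and ran the robust quasi-likelihood test, with Benjamini-Hochberg adjustment over all genes tested and a call at an adjusted p under 0.05. An SE was taken as the size of the log2 value over the root of its F statistic. The edgeR fit with and without the length step, DESeq2 and limma-voom were also run on simulated counts. Those counts were drawn from the means and dispersions of the edgeR fit, so they do not show how the fits perform on these libraries.

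Alternatives were DESeq2 1.42.0, limma-voom (limma 3.58.1), RLE and upper-quartile factors, total counts, other filters, the replicate number as a block, each library left out, and removal of each library's trend (lowess, span 0.3) on the longest transcript. Use of the median transcript was added after the data were seen. GENCODE 29 (GRCh38) gave lengths and positions, matched on Ensembl ID, and all 38 tested genes of the group had a length. Without strand, reads of overlapping genes cannot be told apart. This concerns 14 of the 39 genes, 11 of them with a partner on the opposite strand. IRF3, IRF9, USP18, IFITM1, IFITM2 and IFITM3 had values that were not whole. No molecular identifiers were used, so PCR copies count as reads.

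The group, the lists and the tests were chosen with earlier results of these data known. Named outside the group were, by a set rule, up to 3 genes of each list that rose and 3 that fell with the lowest p. One gene that this rule selects is not reported here. Figures were drawn with matplotlib 3.10.9 in Python 3.11.15.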

Additional observations from a re-analysis of the deposited data

How the results depend on the processing

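Of the 15 rises and 12 falls among the interferon-stimulated genes, 12 and 7 were called in the same direction in all 14 alternative fits, and no gene called in the main comparison was called in the other direction in any. With the replicate number as a block, 15 rose and 12 fell, the same genes, over all genes 4745 rose and 4301 fell, and the median was -0.05; same-numbered libraries deviated together with a correlation of 0.06, so the number is not taken as a pairing. When 1 library was left out, 13 to 15 rose, 10 to 12 fell, the median was between -0.051 and 0.035, and over all genes 3647 to 4451 rose and 3379 to 4314 fell. Of the pathway genes 9 to 11 then rose and 4 to 6 fell, and of the further interferon-stimulated genes 18 to 26 rose and 10 to 13 fell. Under total counts 7 of the group fell (21 rose), over all genes 7592 rose and 2000 fell, 21 pathway genes rose and 3 fell, 4 further interferon-stimulated genes fell, and the median of the group was 0.46, which is -0.11 relative to all genes, as with TMM factors. With the length trend removed the median was 0.17, beside -0.0082 for all genes. On the median transcript in place of the longest it was -0.07, beside 0.0013 for all genes. The sign of the group's median thus depended on which length was used.

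Signs that changed from the main comparison were these, none of a gene called both there and in the other fit. Between alternative fits some calls were opposite. IFIT1 was called at 0.48 under total counts and at -0.34 with the length trend removed. IFIT5 was called at 0.56 under total counts and at -0.53 with the median transcript, and IRF3 is described above. Of the signs that changed under total counts, those of IRF3, IRF9, USP18 and IFIT1 were called as higher there. Under total counts IRF3 was at 0.35, IRF9 at 0.44, USP18 at 0.45, IFIT1 at 0.48, IFITM1 at 0.022, OAS1 at 0.38, MX2 at 0.32, RSAD2 at 0.17 and IFI44 at 0.28. With the length trend removed IRF9 was at 0.28, USP18 at 0.20, IFIT5 at -0.18, IFITM1 at 0.18, IFITM2 at 0.0084, IFITM3 at 0.031, OAS1 at 0.041, SAMD9 at -0.0022, IFI44 at 0.17 and MAVS at -0.21, and with the median transcript IFIT5 was at -0.53 (called), OAS1 at 0.013, SAMD9 at -0.13 and MAVS at -0.31. IFIT5 was at -0.0124 with DESeq2 and -0.0121 with RLE factors, and IFIT1 at 0.013 with no filter. Over the fits without 1 library, IRF9 lay between -0.20 and 0.032, USP18 between -0.17 and 0.019, IFIT1 between -0.11 and 0.038, IFIT5 between -0.063 and 0.13, OAS1 between -0.36 and 0.12, MX2 between -0.37 and 0.027 and CMPK2 between -0.0034 and 0.91. The cause of these changes was not tested.

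Genes under about 3 CPM, such as MX1, MX2, CMPK2 and IFITM1, had standard errors of 0.35 to 0.64. Even changes larger than the SE could go uncalled at this depth, as for MX1 at 0.45 (SE 0.39).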

Other observations

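Neighbouring genes of the same family stood apart in several loci. On the log2 scale OAS3 and OAS2 were at 1.25 and 0.94 beside OAS1 at -0.14, HERC5 was at 2.22 beside HERC6 at 0.51, SAMD9L at 1.64 beside SAMD9 at 0.56, IFI44L at 1.42 beside IFI44 at -0.24, and IFIT2 and IFIT3 at 0.98 and 0.92 beside IFIT1 at -0.04. These differences between neighbours were not tested. With the length trend removed OAS3 and OAS2 were at 0.69 and 0.62 beside OAS1 at 0.04, and IFI44L at 0.95 beside IFI44 at 0.17. In that fit HERC5 was at 2.08 beside HERC6 at 0.32, and SAMD9L at 1.06 beside SAMD9 at -0.0022. IFIT2 and IFIT3 were then at 0.80 and 1.07 beside IFIT1 at -0.34.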
